A study of Mus musculus with 9 samples.

Results

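Enteroendocrine genes were followed in sorted crypt cells of the mouse small intestine after loss of KANSL1, the scaffold protein of the NSL histone acetyltransferase complex. The genes were 31, chosen by name: 9 hormone genes, 8 genes of the secretory granule, 4 genes of hormone processing and amine synthesis, and 10 transcription factors of enteroendocrine fate. All 31 were found among the 57180 gene identifiers of the count table, and 26 were among the 13405 genes with enough counts to be tested. With 4 days of tamoxifen (KO day 4), RNA was higher for all 9 hormone genes, for 4 granule proteins, for Tph1 and Cpe among the enzymes, and for Fev and Lmx1a among the fate factors. After 3 days (KO day 3) no listed gene passed the test.

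Enteroendocrine cells are scattered hormone-secreting cells of the gut epithelium. They arise from Lgr5+ stem cells through secretory progenitors that briefly switch on the transcription factor Neurog3, which then hands over to factors such as Neurod1, Pax4, Pax6 and Isl1 as the cells mature. Mature cells package peptide hormones or serotonin with chromogranins into dense-core granules and release them in response to nutrients and microbial products.

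The mice carried Lgr5-EGFP-CreERT2, which puts GFP and a Cre that tamoxifen switches on under the promoter of the stem cell receptor gene Lgr5, together with floxed Kansl1 alleles (Kansl1 f/f). KO day 3 mice (genotype label KANSL1-KO) had tamoxifen on 3 successive days, KO day 4 mice (KANSL1-KO) had it on 4, and control mice (KANSL1-WT, here WT) had corn oil; 3 libraries were made from Lgr5-GFP+ cells of each group. Strain, age and sex, the number of animals behind a library, and whether replicates came from separate animals are not stated in the labels, so the p-values measure the spread between these libraries, which may be technical. Knockout and tamoxifen went together in every comparison with WT and cannot be told apart, nor can the number of doses and the time since the first in the comparison of the KO groups. Cre acts where Lgr5 is expressed, and GFP persists for a time in the daughters of Lgr5+ cells, so a sort on GFP can hold young secretory cells as well as stem cells.

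The libraries held 8400458 to 21484679 counts at KO day 3, 11174583 to 16943055 at KO day 4 and 12164479 to 17913787 in WT. Mitochondrially encoded genes took 19.0% to 32.4% of the counts at KO day 3, 66.9% to 72.1% at KO day 4 and 16.4% to 25.8% in WT. Counts outside chromosome M were therefore lowest at KO day 4 (3115374 to 5614186, against 9996919 to 13980785 in WT), and values are given as CPM (counts relative to library size) with TMM scaling, edgeR's correction for a few abundant genes that crowd out the rest. KO day 3 replicate 1 (r = 0.910 and 0.914 with the other two libraries of its group, which correlated at 0.971) and KO day 4 replicate 3 (0.857 and 0.863, the other two at 0.923) stood apart. The targeted gene Kansl1 had 2.81, 2.99 and 2.55 CPM at KO day 3, 2.93, 5.09 and 8.96 at KO day 4 and 4.46, 11.4 and 9.83 in WT. KO day 3 lay below every WT library, whereas KO day 4 replicates 2 and 3 lay within the WT range with this scaling. In counts they were 33, 69 and 72 at KO day 3, 25, 32 and 40 at KO day 4 and 115, 344 and 219 in WT. The deleted exons are not named in the labels, so counts over the whole gene need not reach 0, and the groups are used as labelled. Lgr5, the gene behind the sort, had 22.3, 26.7 and 14.8 CPM at KO day 4 and 30.6, 34.8 and 39.3 in WT (-0.71 on the log2 scale, edgeR adjusted p = 0.0921).

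**Figure D1:**
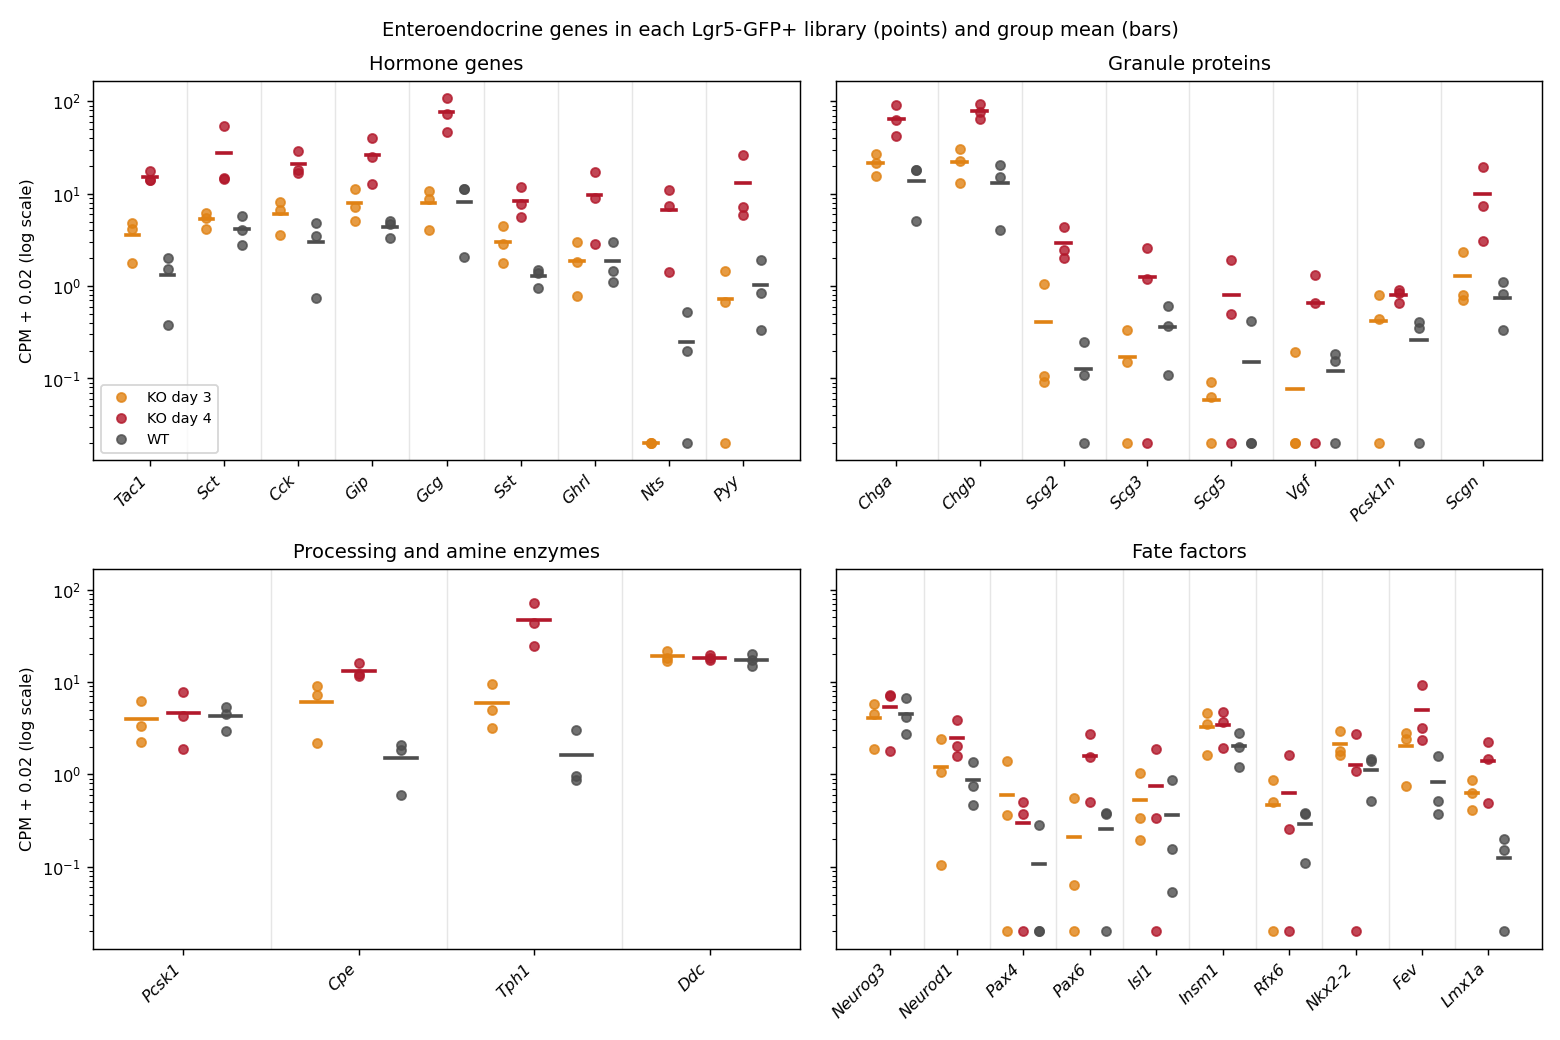
CPM of the 31 enteroendocrine genes in each library, with 0.02 added so that a library at 0 can be drawn on the log axis; points are libraries, short bars the group means, and panels the roles. The hormone genes and the chromogranins of KO day 4 sit above WT, Ghrl being the hormone gene whose groups overlap, whereas Ddc and Pcsk1 overlap in all 3 groups.

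The first comparison, KO day 4 against WT, called 17 of the 26 tested genes higher and 0 lower (edgeR quasi-likelihood test, Benjamini-Hochberg adjusted p under 0.05 over all genes), where 11.1% of all tested genes were called higher and 11.5% lower. The median log2 fold change of the 26 genes was 2.61, and that of all tested genes was -0.06. In 18 of the 26 the KO day 4 libraries all lay above the WT libraries, against 20.6% of all tested genes. Of the 26, 6 (Pax6, Isl1, Rfx6, Lmx1a, Nts and Scg2) passed the minimum on counts only with the KO day 4 libraries in the filter; 14 of the 17 called genes passed it on the WT and KO day 3 libraries alone. In sorted pools, more enteroendocrine cells and more of these RNAs in each cell cannot be told apart. The same 17 genes were called with RLE size factors and with DESeq2. With library size alone, which makes no correction for composition, the median of all tested genes was -1.95, and 5 genes were called higher (Tac1, Gcg, Nts, Scgn and Tph1) and 3 lower (Neurog3, Pcsk1 and Ddc). Changes below are relative to TMM scaling, under which the median gene lies close to 0.

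All 9 hormone genes rose at KO day 4, with log2 fold changes from 2.38 to 4.81 and a median of 2.81. Gcg (ENSMUSG00000000394, chr2:62474530-62483650 on the minus strand of GRCm38) encodes proglucagon, the precursor of GLP-1 in L cells. It had 47.1, 73.6 and 108 CPM at KO day 4, against 11.1, 11.3 and 2.02 CPM in WT. Every KO day 4 library was above every WT library, and the lowest WT value was replicate 3. The log2 fold change was 3.21 ± 0.58 (SE; edgeR adjusted p = 0.00354). Pyy, the peptide YY gene of the same cells, had 7.15, 5.88 and 26.2 CPM at KO day 4 and 0.815, 1.88 and 0.314 CPM in WT, again with no overlap but with 1 high library, KO day 4 replicate 3 (3.66 ± 0.94, SE; edgeR adjusted p = 0.0182). Nts, the gene of the ileal peptide neurotensin, had 12, 46 and 49 counts at KO day 4 and 13, 0 and 4 counts in WT. In CPM these were 1.41, 7.31 and 10.97 at KO day 4 and 0.505, 0 and 0.180 in WT, and replicate 1 was the lowest KO day 4 library. Nts passed the minimum on counts only through KO day 4 (4.81 ± 1.20, SE; edgeR adjusted p = 0.0203).

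The other 6 hormone genes rose as well. Gip, the incretin gene of K cells, had 25.2, 40.1 and 12.8 CPM at KO day 4 and 5.01, 3.27 and 4.72 CPM in WT (2.59 ± 0.43, SE; edgeR adjusted p = 0.00221). Cck, the cholecystokinin gene of I cells, had 28.7, 16.5 and 18.1 CPM at KO day 4 and 3.49, 4.79 and 0.719 CPM in WT (2.81 ± 0.56; adjusted p = 0.00589, same edgeR fit). Neither gene's groups overlapped, and each had its highest library elsewhere: Gip in KO day 4 replicate 2, Cck in replicate 1. Sct encodes secretin, which stimulates bicarbonate secretion by the pancreas. Its KO day 4 libraries had 14.4, 14.8 and 54.4 CPM and its WT libraries 5.67, 4.00 and 2.78 CPM (2.73 ± 0.51, SE; edgeR adjusted p = 0.00412). Replicate 3 stood well above the other KO day 4 libraries, and without it the log2 fold change of Sct was 1.81. Tac1, the substance P precursor of enterochromaffin cells, was even across KO day 4, at 13.9, 17.6 and 14.1 CPM, against 1.51, 1.98 and 0.359 CPM in WT (3.54 ± 0.56, SE; edgeR adjusted p = 0.00183). Sst encodes somatostatin, the inhibitory peptide of D cells, and had 5.51, 7.79 and 11.9 CPM at KO day 4 against 1.48, 1.35 and 0.943 CPM in WT (2.72 ± 0.48, SE; edgeR adjusted p = 0.00326). Ghrl, the ghrelin gene, had 8.91, 2.86 and 17.2 CPM at KO day 4 and 2.95, 1.45 and 1.08 CPM in WT. It was the hormone gene with overlapping groups, since KO day 4 replicate 2 fell below WT replicate 1 (2.38 ± 0.68, SE; edgeR adjusted p = 0.0291).

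Of the granule proteins, 4 of 4 tested genes rose, with a median log2 fold change of 3.14; 1 of them, Scg2, passed the minimum on counts only through KO day 4. Chga (chr12:102554969-102565028, plus strand) and Chgb (chr2:132781278-132795079, plus strand) encode chromogranins A and B, the acidic proteins that condense hormones in the granule. Chga had 42.1, 62.6 and 90.7 CPM at KO day 4 and 18.2, 17.8 and 5.07 CPM in WT (2.24 ± 0.44, SE; edgeR adjusted p = 0.0056). Chgb had 64.0, 77.3 and 93.4 CPM at KO day 4 and 15.1, 20.5 and 4.04 CPM in WT (2.56 ± 0.49, SE; edgeR adjusted p = 0.00465). Every KO day 4 library of both genes was above every WT library, and WT replicate 3 was the lowest library of each. Scgn, the gene of the calcium sensor secretagogin, had 3.05, 7.31 and 19.3 CPM at KO day 4 and 1.09, 0.793 and 0.314 CPM in WT (3.71 ± 0.79, SE; edgeR adjusted p = 0.00754). Scg2, the secretogranin II gene, had 17, 27 and 11 counts at KO day 4, against 0, 7 and 2 counts in WT, which is 1.99, 4.29 and 2.46 CPM at KO day 4 against 0, 0.231 and 0.0898 CPM in WT (4.64 ± 1.25, SE; edgeR adjusted p = 0.0224). The groups of neither gene overlapped, and Scgn was highest in KO day 4 replicate 3, Scg2 in replicate 2.

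The other 4 granule genes had too few counts to test. Scg3, whose protein binds chromogranin A, had 10, 16 and 0 counts at KO day 4 and 9, 18 and 2 counts in WT. Scg5, the gene of the prohormone convertase chaperone 7B2, had 16, 3 and 0 counts at KO day 4 and 0, 12 and 0 counts in WT. Vgf, a neuroendocrine peptide precursor gene, had 11, 4 and 0 counts at KO day 4 and 0, 5 and 3 counts in WT. In these 3 genes KO day 4 replicate 3, the shallowest library outside chromosome M, was at 0. Pcsk1n, which encodes proSAAS, an inhibitor of prohormone convertase 1, had 7, 4 and 4 counts at KO day 4 and 10, 10 and 0 counts in WT.

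The enzymes divided. Tph1 (ENSMUSG00000040046, chr7:46644641-46672537, minus strand), the enzyme that starts serotonin synthesis in the gut, had 24.5, 43.9 and 71.9 CPM at KO day 4, against 0.854, 2.97 and 0.943 CPM in WT. Every KO day 4 library was above every WT library, and the log2 fold change of 4.84 ± 0.62 (SE; edgeR adjusted p = 0.000683) was the highest of the 26 tested genes. Cpe, the carboxypeptidase that trims basic residues from cleaved prohormones, had 11.5, 16.1 and 12.3 CPM at KO day 4 and 1.82, 2.08 and 0.584 CPM in WT, with no overlap (3.13 ± 0.57, SE; edgeR adjusted p = 0.00357). By contrast Pcsk1, the convertase that makes the first cuts in prohormones, had 1.88, 7.79 and 4.25 CPM at KO day 4 and 4.50, 5.29 and 2.92 CPM in WT, and the groups overlapped (0.12 ± 0.55, SE; edgeR adjusted p = 0.902). Ddc, the decarboxylase of the second step of serotonin synthesis, had 19.5, 17.3 and 18.1 CPM at KO day 4 and 17.4, 14.7 and 19.9 CPM in WT (0.08 ± 0.20, SE; edgeR adjusted p = 0.813). Enterocytes also express Ddc, and its libraries lay within 14.7 to 21.6 CPM in all 3 groups. With library size alone both genes were called lower at KO day 4, Pcsk1 at -1.78 and Ddc at -1.81 on the log2 scale, close to the median of all genes under that scaling. Mast cells of the mouse also make Tph1, and the mast cell markers moved with it: their summed level was 25.6 to 229 CPM of counts outside chromosome M at KO day 3, 519 to 1504 at KO day 4 and at most 0.787 in WT. Their part in the Tph1 result was not tested.

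Among the fate factors 2 of 9 tested genes rose and 0 fell, beside 11.1% and 11.5% of all tested genes. The median log2 fold change was 1.20. Pax6, Isl1, Rfx6 and Lmx1a passed the minimum on counts only with the KO day 4 libraries in the filter. Neurog3 (ENSMUSG00000044312, chr10:62133090-62134763, plus strand), the factor that commits progenitors to the lineage, had 7.03, 7.15 and 1.79 CPM at KO day 4 and 4.11, 6.68 and 2.69 CPM in WT. The ranges overlapped almost wholly (0.27 ± 0.57, SE; edgeR adjusted p = 0.77), although with library size alone Neurog3 was called lower, at -1.58 on the log2 scale. Fev, a factor of serotonergic and other enteroendocrine cells, had 2.34, 3.18 and 9.18 CPM at KO day 4 and 0.349, 1.55 and 0.494 CPM in WT (2.57 ± 0.79, SE; edgeR adjusted p = 0.0389). Lmx1a, which acts upstream of Tph1 in enterochromaffin cells, had 4, 9 and 10 counts at KO day 4 and 0, 4 and 4 counts in WT, or 0.469, 1.43 and 2.24 CPM at KO day 4 against 0, 0.132 and 0.180 CPM in WT (3.61 ± 1.07, SE; edgeR adjusted p = 0.0323). Every KO day 4 library of both genes lay above every WT library.

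The other 6 tested fate factors did not pass. Neurod1, which follows Neurog3, had 1.99, 3.82 and 1.57 CPM at KO day 4 and 0.738, 1.35 and 0.449 CPM in WT, with every KO day 4 library above WT (1.53 ± 0.89, SE; edgeR adjusted p = 0.239). Pax6, needed for proglucagon-expressing cells, had 1.52, 0.477 and 2.69 CPM at KO day 4 and 0.349, 0.364 and 0 CPM in WT, also without overlap (2.63 ± 1.29, SE; edgeR adjusted p = 0.164). The remaining ones overlapped. Insm1, a zinc finger factor of neuroendocrine differentiation, had 3.63, 1.91 and 4.70 CPM at KO day 4 and 1.98, 2.81 and 1.17 CPM in WT (0.76 ± 0.56). Nkx2-2, a homeodomain factor of the lineage, had 1.05, 2.70 and 0 CPM at KO day 4 and 1.36, 1.45 and 0.494 CPM in WT (0.22 ± 0.88). Isl1, a LIM homeodomain factor, had 16, 2 and 0 counts at KO day 4 and 22, 1 and 3 counts in WT (1.20 ± 1.31). Rfx6, a winged-helix factor of endocrine cells, had 2, 10 and 0 counts at KO day 4 and 9, 11 and 2 counts in WT (1.18 ± 1.29). For these 4 genes the edgeR adjusted p lay between 0.348 and 0.885, and SEs up to 1.31 left the scarcest of them imprecise. Pax4, a factor of the early lineage that was not tested, had 0, 8 and 39 counts at KO day 3, 3, 3 and 0 at KO day 4 and 0, 8 and 0 in WT, most of them in KO day 3 replicate 3.

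**Figure D2:**
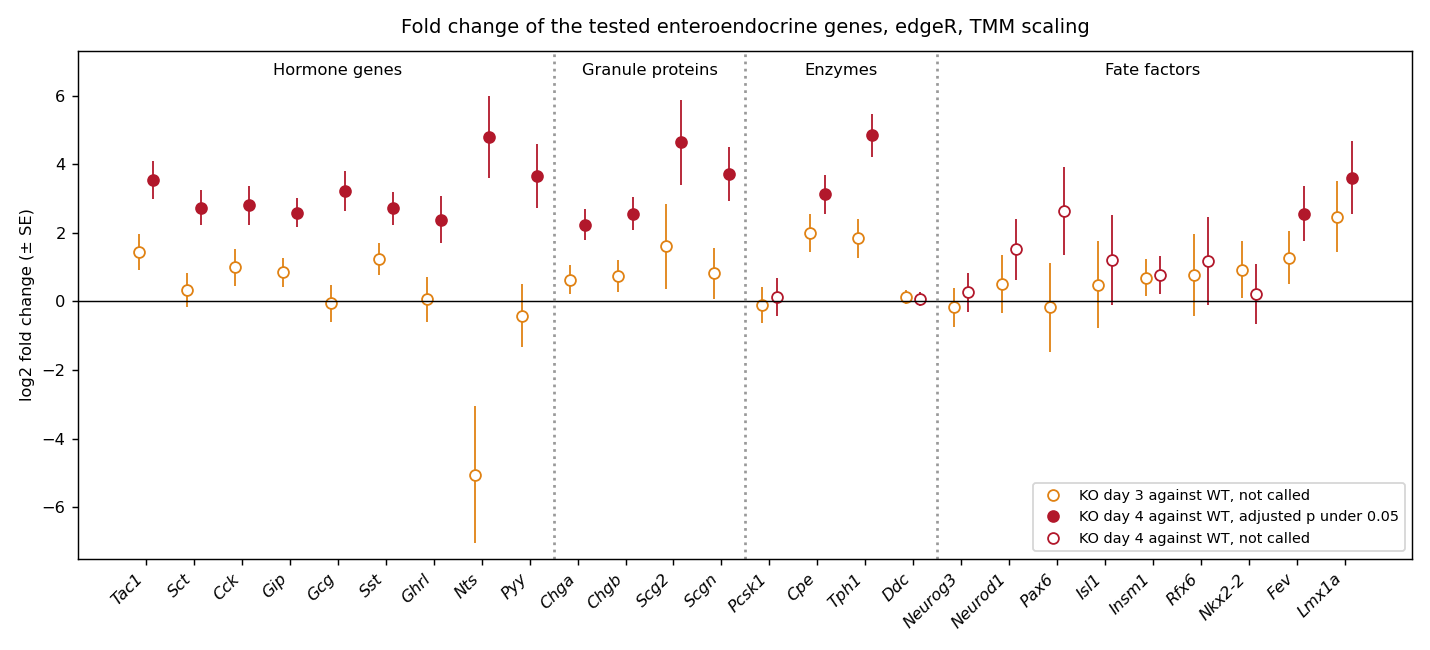
Log2 fold change with its standard error for the 26 tested genes at KO day 3 and KO day 4, each against WT; filled points passed an adjusted p under 0.05 in edgeR and open points did not. KO day 4 lies above 2 for all hormone and granule genes, and near 0 for Pcsk1, Ddc, Neurog3 and Nkx2-2, whereas Nts at KO day 3 is fitted from 0 counts and has no meaningful size.

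Of the 17 calls at KO day 4, 11 held whichever of the 9 libraries was left out: Tac1, Sct, Cck, Gip, Gcg, Sst, Chga, Chgb, Scgn, Cpe and Tph1. The other 6 lost their call without at least 1 library. The edgeR adjusted p of Fev was 0.0535 without KO day 4 replicate 2, 0.138 without KO day 4 replicate 3, 0.0541 without KO day 3 replicate 3 and 0.125 without WT replicate 1 or WT replicate 3. Ghrl had an edgeR adjusted p of 0.0518 without KO day 4 replicate 1, 0.104 without KO day 4 replicate 3, 0.101 without WT replicate 2 and 0.102 without WT replicate 3. These genes thus depended on libraries of more than 1 group. For Nts it was 0.0572 and 0.0578 without KO day 4 replicates 2 and 3 and 0.0741 without WT replicate 3. Pyy had 0.0768 without KO day 4 replicate 3, 0.0681 without WT replicate 1 and 0.0649 without WT replicate 3. In Scg2 it was 0.0658 without KO day 4 replicate 2, 0.0709 without WT replicate 1 and 0.0846 without WT replicate 3. Lmx1a kept its call in 2 of the 9 cases, and its highest adjusted p was 0.105, without WT replicate 2. WT replicate 3 was the library whose removal cost most, leaving 11 calls. KO day 4 replicate 3 was the highest library for 12 of the 17 genes, and WT replicate 3 was the lowest of its group for 11 of them.

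The roles also took different shares of the counts, on which no test was run. Hormone genes gave 41.4% to 44.9% of all counts on the 31 genes at KO day 4, against 24.8% to 31.8% in WT. Fate factors gave 3.64% to 5.92% at KO day 4, against 9.86% to 13.5% in WT. Neither the hormone nor the fate factor ranges overlapped between KO day 4 and WT. At KO day 3 the hormone share was 25.7% to 29.4% and the fate factor share 9.78% to 13.0%, overlapping the WT ranges. Enzymes gave 16.5% to 18.9% at KO day 4 and 22.6% to 46.1% in WT, again without overlap, and 22.9% to 29.6% at KO day 3. Granule genes held 33.6% to 34.6% at KO day 4 and 18.4% to 36.8% in WT, so those ranges overlapped. These shares do not depend on the scaling, because they are formed within each library, and each rests on 1718 to 4346 counts at KO day 3, 2720 to 2956 at KO day 4 and 1179 to 3357 in WT. A lower share was not a lower level. Enzyme genes summed to 87.1 to 153 CPM of counts outside chromosome M at KO day 4 and 47.7 to 54.3 in WT. Fate factors summed to 31.2 to 34.7 at KO day 4 and 12.7 to 32.5 in WT, which overlapped. On a scale per transcript length (TPM, group means ± SD over 3 libraries), the most abundant listed RNAs at KO day 4 were Gcg at 80.5 ± 26.5, Sct at 66.4 ± 49.1 and Gip at 62.4 ± 35.9 TPM. In WT they were Gip at 20.6 ± 4.65, Sct at 20.4 ± 3.78 and Gcg at 17.1 ± 10.9 TPM. Neighbours in either order differed by less than their spread.

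**Figure D3:**
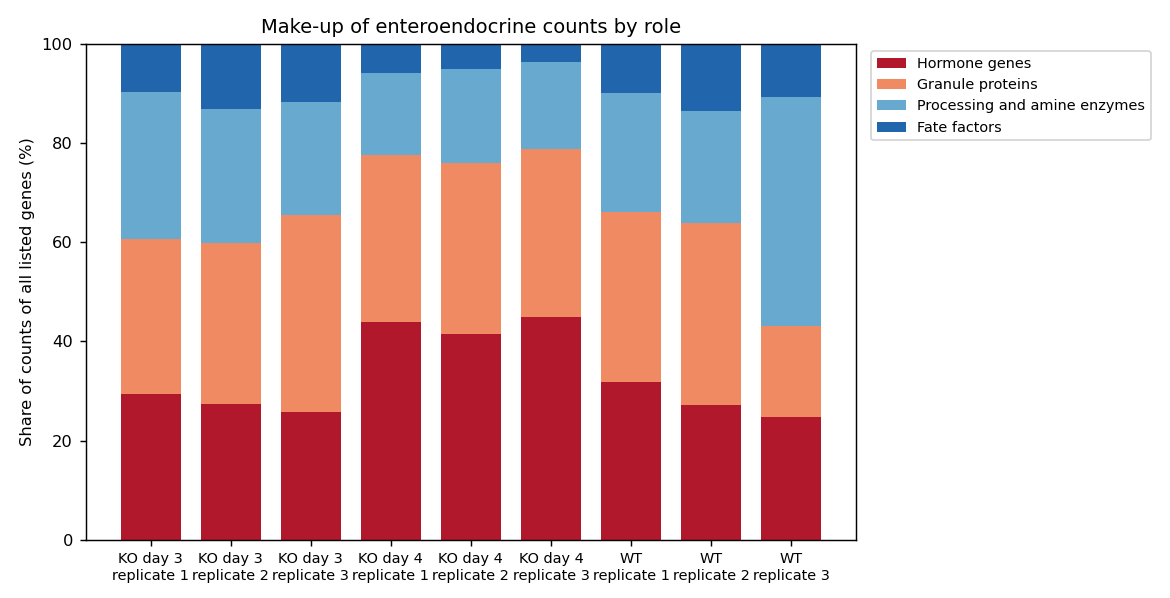
Share of the counts of the 31 listed genes that falls to hormone genes, granule proteins, enzymes and fate factors, as a stacked bar for each library. Hormone genes take at least 41.4% in each KO day 4 library and at most 31.8% in any WT or KO day 3 library, and the fate factor share is lowest in the KO day 4 libraries.

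The second comparison, KO day 3 against WT, called 0 of the 26 genes with edgeR, where 0.142% of all tested genes were called higher and 0.298% lower. At an unadjusted p under 0.05 there were 6 genes (Lmx1a, Tac1, Sst, Nts, Cpe and Tph1), where 15.8% of all tested genes were under it, and DESeq2 called 2, Cpe and Tph1. The median log2 fold change was 0.72 over the 26 genes and -0.02 over all tested genes. In 6 genes (Gip, Sst, Cpe, Tph1, Lmx1a and Nkx2-2) the KO day 3 libraries all lay above WT, against 12.1% of all tested genes. Cpe had 8.95, 2.17 and 7.12 CPM at KO day 3 and 1.82, 2.08 and 0.584 CPM in WT (1.99 ± 0.55, SE; edgeR adjusted p = 0.114, 0.00949 with DESeq2). Tph1 had 9.55, 3.16 and 4.998 CPM at KO day 3 and 0.854, 2.97 and 0.943 CPM in WT (1.84 ± 0.57, SE; edgeR adjusted p = 0.15, 0.0191 with DESeq2). In both genes replicate 1, the library that stood apart, was highest and replicate 2 lowest, the same order as the mast cell tryptase gene Tpsb2 (28.4, 3.29 and 7.41 CPM at KO day 3). The order was not particular to them: 5 of the 17 genes called at KO day 4 had it, the others being Fev, Lmx1a and Cck. The part of mast cells in the Cpe and Tph1 values was not tested.

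Among the hormone genes at KO day 3, Gip and Sst lay above WT in every library without passing the test. Gip had 11.3, 7.20 and 5.03 CPM at KO day 3 and 5.01, 3.27 and 4.72 CPM in WT (0.85 ± 0.41, SE; edgeR adjusted p = 0.347). Sst had 4.43, 2.82 and 1.77 CPM at KO day 3 and 1.48, 1.35 and 0.943 CPM in WT (1.23 ± 0.46, SE; edgeR adjusted p = 0.228). In both genes replicate 1 was the highest KO day 3 library. Tac1 had 4.18, 1.78 and 4.75 CPM at KO day 3, and its replicate 2 lay within the WT range (1.45 ± 0.53, SE; edgeR adjusted p = 0.218). Cck had 8.10, 3.55 and 6.59 CPM and Pyy 0, 0.650 and 1.45 CPM at KO day 3, with edgeR adjusted p = 0.405 and 0.888. Gcg had 8.78, 4.03 and 10.8 CPM (-0.06 ± 0.55), Sct 5.46, 4.12 and 6.20 CPM (0.34 ± 0.49) and Ghrl 0.767, 1.82 and 3.01 CPM (0.06 ± 0.66) at KO day 3. All 6 of Tac1, Cck, Pyy, Gcg, Sct and Ghrl overlapped WT. Nts had 0 counts in all 3 KO day 3 libraries and 17 in WT, which is at least 4.56-fold lower when the KO day 3 group is set to a floor of 3 counts, and its edgeR adjusted p was 0.263.

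The chromogranins of KO day 3 lay between the other groups on average and overlapped WT. Chga had 21.49, 15.5 and 27.2 CPM at KO day 3 (0.64 ± 0.43, SE; edgeR adjusted p = 0.517) and Chgb had 22.5, 13.1 and 30.8 CPM (0.74 ± 0.47, SE; edgeR adjusted p = 0.487). Scgn had 0.682, 0.780 and 2.34 CPM at KO day 3 and Scg2 12, 2 and 2 counts, of which replicate 1 held most. The untested granule genes had 0, 3 and 9 counts (Scg3), 0, 1 and 2 counts (Scg5), 0, 4 and 0 counts (Vgf) and 0, 18 and 12 counts (Pcsk1n) at KO day 3, all at 0 in replicate 1, the library with the fewest counts in total. Neurog3 had 4.43, 5.72 and 1.88 CPM at KO day 3 (-0.17 ± 0.56, SE; edgeR adjusted p = 0.927), Fev 2.81, 0.737 and 2.41 CPM (1.28 ± 0.76) and Lmx1a 0.853, 0.390 and 0.603 CPM (2.48 ± 1.02). Nkx2-2 and Lmx1a lay above every WT library, and the other fate factors overlapped WT. Insm1 had 3.50, 1.60 and 4.61 CPM and Neurod1 0.0853, 1.04 and 2.41 CPM at KO day 3, and Pax6, Isl1 and Rfx6 had at most 1.02 CPM in any KO day 3 library. Nkx2-2 had 1.62, 1.78 and 2.91 CPM at KO day 3 (0.93 ± 0.83, SE; edgeR adjusted p = 0.651). Pcsk1 had 3.33, 2.21 and 6.27 CPM and Ddc 21.6, 18.2 and 16.9 CPM at KO day 3, with log2 fold changes of -0.10 ± 0.53 and 0.12 ± 0.20 (SE).

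The third comparison set KO day 4 against KO day 3, and shares its KO libraries with the comparisons above. It called 11 genes higher and 0 lower, against 6.52% and 6.03% of all tested genes, and the median log2 fold change of the 26 genes was 1.67, beside -0.02 for all tested genes. In 14 genes the KO day 4 libraries all lay above KO day 3, against 15.8% of all tested genes. The called genes were 7 of 9 hormone genes (all but Cck and Sst), Chga, Chgb, Scgn and Tph1, and 0 of 9 fate factors. Gcg was higher at KO day 4 by 3.27 ± 0.59 log2 units (SE; edgeR adjusted p = 0.00745) and Tph1 by 3.00 ± 0.56 (SE; edgeR adjusted p = 0.0089). Nts had 107 counts at KO day 4 and 0 at KO day 3, at least 116.5-fold higher against a floor of 3 counts over the KO day 3 group (edgeR adjusted p = 0.0112). These 3 kept their call whichever library was left out; without KO day 3 replicate 2 they were the only ones of the 11 still called. The count was 5 without KO day 4 replicate 3 and 6 without KO day 4 replicate 2. Scaled by library size alone, 4 were higher (Gcg, Nts, Pyy and Tph1) and 4 lower (Insm1, Nkx2-2, Pcsk1 and Ddc), where the median of all tested genes was -1.54.

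Of 24 further granule, exocytosis and amine genes 16 were tested at KO day 4 against WT. Of these 7 rose, 0 fell and 9 were not called, where 11.1% of all tested genes were called higher. Their summed level was 287 to 346 CPM of counts outside chromosome M at KO day 4 and 364 to 372 in WT. With the TMM scaling of the calls it was 205, 191 and 242 CPM at KO day 4 and 188, 171 and 167 in WT. The sum thus lay below WT on the first scale and above it with TMM. It was weighted by 1 gene, Qdpr, with 3142, 3314 and 2450 of the 4841, 5175 and 3715 counts of the list in WT. At KO day 4 Qdpr had 822, 313 and 373 of 1748, 1201 and 1079. Rph3al, Qdpr and Scamp5 lay below WT in every KO day 4 library without passing the test, at -1.03, -0.57 and -0.44 on the log2 scale. Slc18a2, the vesicular monoamine transporter VMAT2, had 17.6, 26.2 and 42.1 CPM at KO day 4, against 0.155, 0.165 and 0 CPM in WT (7.89 ± 0.75, SE; edgeR adjusted p = 0.00019). It is also the transporter of mast cells, whose markers rose beside it. Slc18a1, the transporter VMAT1 of enterochromaffin cells, had 10.7, 10.5 and 9.40 CPM at KO day 4 and 2.68, 1.72 and 1.21 CPM in WT (2.44 ± 0.44, SE; edgeR adjusted p = 0.0035). Gch1, which makes the cofactor of tryptophan hydroxylase, rose by 2.79 (adjusted p = 0.00257, edgeR) and Syt7, a calcium sensor of exocytosis, by 2.98 (adjusted p = 0.0056, edgeR). None of these 4 genes had overlapping KO day 4 and WT libraries.

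Among 18 further transcription factors of the endocrine programme 9 were tested, 3 rose and 1 fell, beside 11.1% higher and 11.5% lower among all tested genes. The summed level of the list was 127 to 160 CPM of counts outside chromosome M at KO day 4 and 182 to 226 in WT. With TMM scaling it was 106, 84.4 and 89.6 CPM at KO day 4 and 94.0, 94.1 and 101 in WT. The groups thus overlapped on the scale of the calls. Foxa1 rose by 0.97 and its relative Foxa2 fell by 0.91 on the log2 scale (edgeR adjusted p = 0.0105 and 0.0388). Foxa1 had 21.8, 22.3 and 30.9 CPM at KO day 4 against 11.9, 12.6 and 13.8 CPM in WT, and Foxa2 had 6.80, 4.61 and 4.93 CPM at KO day 4 against 8.62, 9.35 and 13.1 CPM in WT. Hhex and Etv1 rose too (edgeR adjusted p = 0.0112 and 0.0138). Both passed the minimum on counts only with the KO day 4 libraries in the filter, and had 4 and 5 counts in all of WT. Hhex had 0.703, 3.02 and 1.79 CPM at KO day 4 and 0.0776, 0 and 0.0898 CPM in WT, and Etv1 had 1.29, 0.477 and 5.15 CPM at KO day 4 and 0.116, 0.0330 and 0.0449 CPM in WT. Of 9 genes of Notch signalling and secretory fate, with a summed level of 293 to 305 CPM of counts outside chromosome M at KO day 4 and 455 to 518 in WT, 1 fell and 3 rose: the goblet and Paneth cell factor Spdef (1.76), Gfi1 (2.38) and Atoh1, the factor of all secretory cells (1.21), with edgeR adjusted p = 0.0091, 0.0237 and 0.0278. Notch1, the receptor that holds progenitors out of the secretory fate, fell by 1.41 on the log2 scale (edgeR adjusted p = 0.0034), with 13.7, 9.54 and 10.1 CPM at KO day 4 and 23.0, 31.4 and 34.5 CPM in WT.

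Of 18 nutrient and microbial sensors 4 were tested and 2 rose, beside 11.1% of all tested genes: Ffar2, the short-chain fatty acid receptor (3.21 ± 0.66, SE; edgeR adjusted p = 0.00656), and Trpm5, a taste-transduction channel that is also a tuft cell marker (4.82 ± 0.64, SE; edgeR adjusted p = 0.000852). Among 16 other enteroendocrine marker genes 10 were tested and 5 rose, also beside 11.1% of all tested genes, among them Reg4 at 363, 389.5 and 384 CPM at KO day 4 and 162, 64.5 and 53.0 CPM in WT (2.02 ± 0.36, SE; edgeR adjusted p = 0.00319). Tm4sf4, Gfra3 and Vwa5b2 rose by 1.64, 2.64 and 2.75 (edgeR adjusted p = 0.0037, 0.0177 and 0.0366). None of 11 further peptide genes was tested. Iapp, the amylin gene, had 37 counts at KO day 4 and 2 in WT, a ratio of 75.1 with an exact 95% interval from counting error of 19.4 to 643. Calca, which encodes calcitonin and CGRP, had 23 counts at KO day 4 and 0 in WT, at least 31.1-fold higher against a floor of 3 counts over the WT group.

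Markers of several other cell types also rose at KO day 4, whereas the stem cell and enterocyte sums fell. Summed over each list, the 31 enteroendocrine genes had 171 to 292 CPM of counts outside chromosome M at KO day 3, 527 to 873 at KO day 4 and 118 to 240 in WT. Paneth cell markers had 37594 to 57316 at KO day 3, 126455 to 174094 at KO day 4 and 23399 to 58268 in WT, and 14 of 14 tested rose at KO day 4. Among all tested genes 11.1% were called higher and 11.5% lower at KO day 4 against WT. Tuft cell markers had 555 to 724 at KO day 3, 1019 to 1522 at KO day 4 and 537 to 570 in WT, with 11 of 13 tested higher at KO day 4. Goblet cell markers had 1931 to 2774 at KO day 3, 3471 to 5812 at KO day 4 and 1896 to 2387 in WT, with 9 of 13 higher and 1 lower. The Paneth, tuft, goblet and enteroendocrine sums were thus above WT in each KO day 4 library. Stem cell markers went the other way, at 12916 to 18565 at KO day 3, 2882 to 7763 at KO day 4 and 19119 to 23014 in WT, and 6 of 12 were called lower. Enterocyte sums were lower too, at 936 to 976 at KO day 3, 637 to 704 at KO day 4 and 1012 to 1155 in WT. Of 11 tested enterocyte markers, 2 were called higher and 2 lower at KO day 4, beside 11.1% and 11.5% of all tested genes. Of 14 mast cell markers 11 were tested, which passed the minimum on counts only through KO libraries. All 11 were higher at KO day 4 and 7 at KO day 3, beside 11.1% and 0.142% of all tested genes. The untested Tpsab1, Mcpt1 and Hdc had 1, 0 and 5 counts at KO day 4. Immune markers summed to 6.97 to 40.4 CPM at KO day 3, 65.5 to 164 at KO day 4 and 2.60 to 5.57 in WT, and stromal markers to 7.44 to 14.96 at KO day 3, 38.7 to 73.2 at KO day 4 and 2.40 to 5.80 in WT. The part of these cells in the enteroendocrine result was not tested.

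Several listed hormone genes are also expressed by enteric neurons or by the pancreas. Of 15 enteric neuron markers Hand2, Chat, Nos1 and Vip had 0 counts in every library, and the list summed to at most 6.37 CPM of counts outside chromosome M at KO day 3, 11.5 at KO day 4 and 2.33 in WT. Of 8 glial markers Sox10, Gfap, Gfra2, Foxd3 and Cdh19 were at 0 in every library as well. The glial list still summed to 70.4 to 142 CPM of counts outside chromosome M at KO day 3. It summed to 32.1 to 55.6 at KO day 4 and 133 to 198 in WT. These sums came from the other 3 genes, and in WT replicate 2 from 1 gene, which held all 2762 counts. The 1 tested gene of the list was called lower at KO day 4 (-1.52 on the log2 scale), beside 11.5% of all tested genes. The exocrine pancreas genes Prss1 and Amy2a5 were at 0 throughout, although that list summed to 9.19 to 57.0 CPM at KO day 3, 28.5 to 121 at KO day 4 and 12.1 to 17.7 in WT, and Cela2a and Pnlip were called higher at KO day 4.

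**Figure D4:**
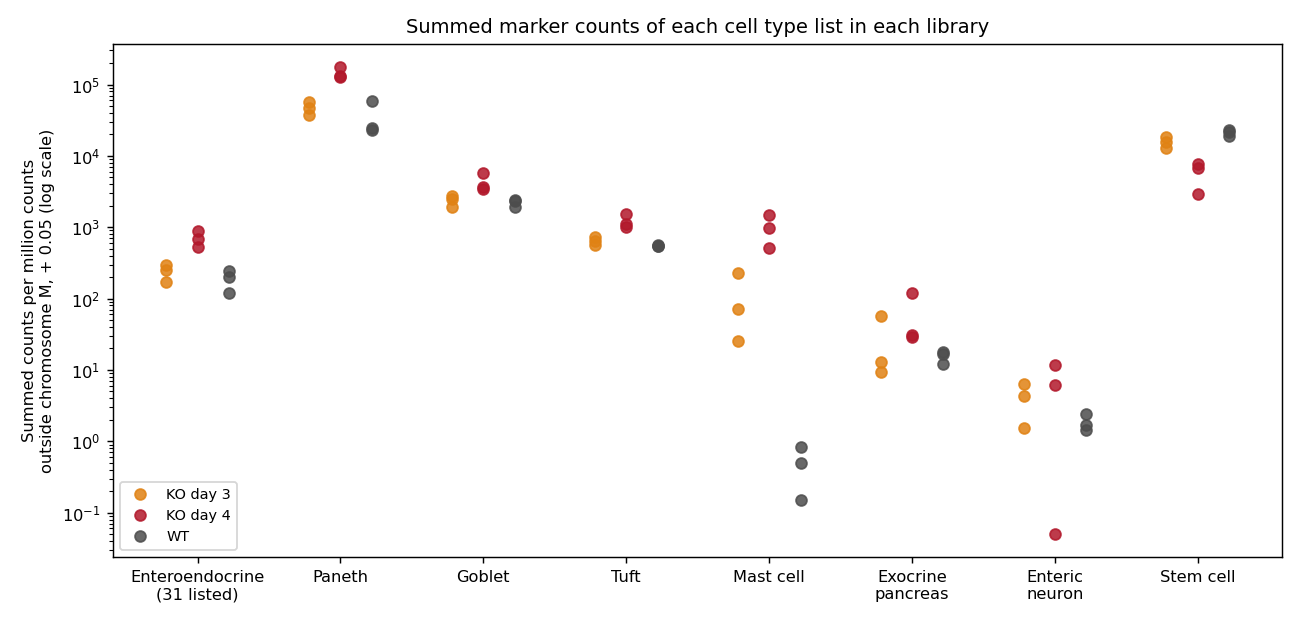
Summed CPM of each marker list, relative to the counts outside chromosome M of each library, with 0.05 added, on a log axis. Enteroendocrine, Paneth, goblet, tuft and mast cell sums of KO day 4 lie above WT, stem cell sums lie below it, and the enteric neuron sums overlap.

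Promoters of the listed genes were read from RefSeq (GRCm38.p6), which held 250 bases before to 50 bases after the start of 27 of the 31 genes. The cAMP response element TGACGTCA, its own reverse complement and the site of CREB family factors, was present in 5 of the 27 (18.5%; Chgb, Pax6, Pcsk1, Scg2 and Sst), against 2.03% of the 27025 genes with a promoter entry. The E-box CAGATG or its reverse complement CATCTG, the letters read by factors such as Neurod1, was present in 6 of 27 (22.2%; Cck, Gcg, Ghrl, Nkx2-2, Sct and Tac1), against 19.2% of all genes. The TATA box letters TATAAA or TTTATA were present in 4 of 27 (14.8%; Chga, Ddc, Gcg and Sct), against 15.7%. None of these motifs contains another, and a match describes the sequence and is not shown to be a bound site. Below are 4 promoters that share the cAMP response element, 3 of genes that rose at KO day 4 and 1, Pcsk1, of a gene that did not pass the test, with the element in capitals, 5′ to 3′ on the strand of the gene. It begins 48 bases before the RefSeq start of Sst (chr16:23890795-23891094, minus strand), 72 before Chgb (chr2:132781392-132781691, plus), 68 before Scg2 (chr1:79439977-79440276, minus) and 78 before Pcsk1 (chr13:75089607-75089906, plus). RefSeq starts can differ from the gene bounds given above. That of Chgb lies inside those bounds, and so does its element. The promoter of Gcg (chr2:62483604-62483903, minus), the listed gene with the highest mean TPM at KO day 4, follows, with capitals marking its E-box matches, which begin 139 and 83 bases before the start.
Sst: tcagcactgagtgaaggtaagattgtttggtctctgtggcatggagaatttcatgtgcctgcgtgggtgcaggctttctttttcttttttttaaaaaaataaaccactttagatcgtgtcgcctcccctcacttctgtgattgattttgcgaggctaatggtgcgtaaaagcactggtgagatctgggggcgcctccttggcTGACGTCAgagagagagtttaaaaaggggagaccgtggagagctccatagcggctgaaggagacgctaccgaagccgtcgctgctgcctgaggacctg
Chgb: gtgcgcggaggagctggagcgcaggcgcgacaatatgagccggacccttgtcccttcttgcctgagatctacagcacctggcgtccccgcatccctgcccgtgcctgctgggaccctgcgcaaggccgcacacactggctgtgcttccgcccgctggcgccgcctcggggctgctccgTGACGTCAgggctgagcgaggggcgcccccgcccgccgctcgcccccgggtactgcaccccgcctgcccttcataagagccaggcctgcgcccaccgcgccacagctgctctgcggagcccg
Scg2: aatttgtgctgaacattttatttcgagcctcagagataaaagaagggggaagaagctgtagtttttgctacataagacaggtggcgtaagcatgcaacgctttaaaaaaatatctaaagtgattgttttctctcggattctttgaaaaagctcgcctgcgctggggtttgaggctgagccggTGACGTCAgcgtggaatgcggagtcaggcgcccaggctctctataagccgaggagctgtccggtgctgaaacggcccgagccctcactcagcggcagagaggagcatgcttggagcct
Pcsk1: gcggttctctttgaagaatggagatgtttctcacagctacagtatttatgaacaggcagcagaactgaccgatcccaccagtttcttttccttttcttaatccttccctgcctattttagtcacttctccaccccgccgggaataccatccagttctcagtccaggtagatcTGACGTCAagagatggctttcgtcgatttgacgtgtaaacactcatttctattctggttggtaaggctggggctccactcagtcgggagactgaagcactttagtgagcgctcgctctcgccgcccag
Gcg: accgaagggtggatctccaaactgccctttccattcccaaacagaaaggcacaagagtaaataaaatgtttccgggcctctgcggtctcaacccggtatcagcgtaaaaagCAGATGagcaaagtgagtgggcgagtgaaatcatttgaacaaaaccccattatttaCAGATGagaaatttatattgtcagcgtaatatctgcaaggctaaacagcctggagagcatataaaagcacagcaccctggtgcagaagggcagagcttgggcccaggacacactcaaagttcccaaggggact
Among the 4 genes with the element shown, Sst, Chgb and Scg2 had log2 fold changes of 2.72, 2.56 and 4.64 at KO day 4, and Pcsk1 had 0.12; the fifth gene with it, Pax6, had 2.63 and did not pass the test.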

How the data were processed

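The deposited table holds raw read counts per Ensembl gene identifier in 9 libraries, made by the authors without normalization, and 6 of its columns are empty. Libraries were made from mRNA, per the labels' protocols. The submitters' processing notes name HISAT2 2.0.4 and GRCm38. How reads were counted, on which strand and with which annotation, is not given in the sources used here, so genes that overlap, on the same or the opposite strand, share uncertain values, as do near-identical copies.

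Identifiers were named through GENCODE M21, which gave a symbol to 51884 of 57180. The listed genes and the other gene lists were chosen with earlier results of these data known. edgeR 4.0.16 (R 4.3.3) fitted all 9 libraries, with filterByExpr (minimum count 10, total 15), TMM scaling and quasi-likelihood F-tests, two-sided, adjusted by Benjamini-Hochberg over 13405 genes at a threshold of 0.05. The SE is the fold change divided by the root of F. TPM used the union of exon lengths. Count ratios of scarce genes have exact binomial 95% intervals, and a group at 0 is set to a floor of 3 counts over the group; both cover counting error only. With 3 libraries against 3, an exact permutation test of 1 gene cannot go below 0.1, so none was used. The steps were tested on simulated data.

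Named genes were all listed genes, with values per library for those past the threshold or with at least 10 counts in some library, and up to 4 genes of each further list with the smallest adjusted p at KO day 4. CPM is scaled by TMM, or is relative to the counts outside chromosome M where so stated. Alternatives were RLE factors, library size alone, leaving out mitochondrially encoded genes (or, added after seeing the data, also unprocessed pseudogenes), no filter, a mean CPM of at least 1, DESeq2 1.42.0, limma 3.58.1 voom with quality weights, only the 2 groups compared, a replicate block, each library left out in turn, and both libraries that stood apart left out. The labels name no batch.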

Additional observations from a re-analysis of the deposited data

Results flagged for a closer look

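Of the 26 listed genes tested, 11 differed between KO day 4 and KO day 3 by the test of that difference itself. Their change against the shared WT libraries was thus not the same at both times. All 11 were higher at KO day 4, where 6.52% of all tested genes were called higher and 6.03% lower. Of the 11, 3 kept their call whichever library was left out. The log2 differences were 9.86 for Nts, 4.07 for Pyy, 3.27 for Gcg, 2.39 for Sct, 2.32 for Ghrl, 2.10 for Tac1 and 1.75 for Gip among the hormone genes, 2.90 for Scgn, 1.82 for Chgb and 1.60 for Chga among the granule proteins, and 3.00 for Tph1. The value of Nts is fitted against 0 counts at KO day 3 and has no meaningful size. Groups of 3 libraries are too small for a check of single outlying libraries.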

How the results depend on the processing

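At KO day 3 against WT, 0 genes were called in edgeR, and 2 (Cpe and Tph1) with no filter on low counts and with DESeq2; leaving out single libraries gave 0 to 0. At KO day 4 against WT, 17 were called, the same 17 with RLE size factors and with DESeq2, 8 with library size alone (5 higher, 3 lower) and 11 to 17 when single libraries were left out, 11 without WT replicate 3. Between KO day 4 and KO day 3, 11 were called, 8 with library size alone (4 higher, 4 lower), 6 without both libraries that stood apart, and 3 to 11 when single libraries were left out. With library size alone the median of all genes moved to -0.39 at KO day 3, -1.95 at KO day 4 and -1.54 between the KO groups, and genes uncalled with TMM were called lower: at KO day 4 against WT Neurog3 (-1.58), Pcsk1 (-1.78) and Ddc (-1.81), and between the KO groups Insm1 (-1.48), Nkx2-2 (-2.18), Pcsk1 (-1.33) and Ddc (-1.57). Leaving out mitochondrially encoded genes and unprocessed pseudogenes, chosen after seeing the data, gave 0, 17 and 11. Gcg, Scgn, Tac1 and Tph1 were called at KO day 4 under all 20 alternatives. No called gene turned round: 459 values of called genes kept their call and 98 lost it, and the cause was not tested. Depth limits the scarce genes, above all in KO day 4 replicate 3.

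The replicate numbers of the titles were not shown to pair the libraries: same-numbered libraries correlated at -0.05 to 0.13 in their deviations from the group means, 1 of 9 pairs over 0.1, and differently numbered ones at -0.09 to 0.09. With the numbers as a replicate block, 0, 13 and 7 genes were called at KO day 3 against WT, KO day 4 against WT and KO day 4 against KO day 3.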
